A study of Mus musculus with 4 samples.

Results

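Angpt1, Angpt2, Pgf, Vegfa, Vegfb and Vegfc, 6 genes for secreted factors that act on blood or lymphatic vessels, were followed in cultured mouse muscle progenitors. They are 6 of the 32285 genes in the deposited tables, and they were chosen by name with their levels in these cells already known. The cells were muscle stem cells of MyoD-KI mice, in which tdTomato, a red fluorescent protein, reports MyoD (gene Myod1), the transcription factor that commits cells to muscle. They had been grown for 5 days in a serum-rich growth medium and sorted for high MyoD-tdTomato signal, and their transcripts were then counted cell by cell with the 10x Genomics 3' v3.1 kit. All 4 samples carried the same genotype, culture, sort gate and day, so the design holds 1 group, and the comparisons below are between cells of that group. Age, sex, strain background and the number of animals were not given in the sources used here, and the MyoD-tdTomato low population was not analysed here.

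Blood vessels are built by endothelial cells, which read vascular growth factors through receptor kinases. Vegfa drives the sprouting of blood vessels through the receptors Kdr (VEGFR2) and Flt1 (VEGFR1), Pgf and Vegfb bind Flt1, and Vegfc acts mainly on lymphatic vessels through Flt4 (VEGFR3). Angpt1 activates the endothelial receptor Tek (TIE2) and stabilises vessels, and Angpt2 is its context-dependent antagonist at the same receptor. In muscle, satellite cells lie close to capillaries. Pax7 marks these stem cells and their proliferating progeny, and Myog (myogenin) marks progenitors that have entered terminal differentiation.

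The 4 deposited samples were found to hold the same cells. Every pair shared 5946 to 5965 barcodes, 99.9% of the smaller set. Set against its own barcode and 100 others drawn from a second sample, a kept cell was most like its own in 99.7% to 99.9% of cases. The samples are therefore called libraries 1 to 4 of 1 sample (n = 1). Values were computed per library and averaged, and no p-value was computed, since cells are not replicates. Intervals are exact 95% counting intervals at the mean count of 1 library. They cover counting error only, with no animal, culture or sort behind them. Where libraries are said below to be apart or not to overlap, this describes repeat counts of the same cells and is not replication. The share of all genes whose libraries stand apart is not given. Of 5944 barcodes in all 4 libraries, 5481 were kept, namely those averaging 1000 or more detected genes and less than 10% mitochondrial UMIs (unique molecular identifiers, each marking 1 captured transcript molecule). Total depth was 62627341 to 68898900 UMIs per library, and the median kept cell had 10369 to 11382. Levels are given as CPM, UMIs of a gene per 1000000 UMIs of the class of cells, and they are compared between cells for 1 gene at a time, not between genes.

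Muscle genes were detected, but without the MyoD-tdTomato low cells their levels cannot test the sort. Myod1 stood at 507 CPM in kept cells, Myog at 1803 CPM and Pax7 at 57.1 CPM. Of the 8 listed stem or progenitor markers, Calcr (0.261 CPM) and Cd34 (0.253 CPM) were under 1 CPM. Of 10 endothelial markers, 9 were under 1 CPM, their summed level was 6.24 CPM, and Tie1 was at 0 in all 4 libraries, which allows up to 0.0455 CPM. The summed level of 6 immune markers was 0.945 CPM, and that of 4 Schwann markers was 8.30 CPM. Of 7 fibroblast markers, 4 were under 1 CPM (Pdgfra 0.499, Col1a1 0.408, Dcn 0.327 and Lum 0.0115 CPM), while Col3a1 reached 110 and Ly6a 29.6 CPM. Of 7 pericyte markers, Kcnj8 and Myh11 were under 1 CPM, and Notch3 made up 50.3 of the summed 84.4 CPM, while Rgs5, Pdgfrb, Cspg4 and Abcc9 lay between. The purity of the sort was not given in the sources used here.

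On GRCm38, by GENCODE vM21 and matched by Ensembl identifier, Angpt1 (ENSMUSG00000022309) spans chr15:42424723-42676977 on the minus strand and Angpt2 (ENSMUSG00000031465) chr8:18690263-18741562 on the minus strand. Pgf (ENSMUSG00000004791) spans chr12:85166635-85177790, Vegfa (ENSMUSG00000023951) chr17:46016993-46032369 and Vegfb (ENSMUSG00000024962) chr19:6982473-6987651, all on the minus strand, and Vegfc (ENSMUSG00000031520) chr8:54077606-54187096 on the plus strand. All 6 are protein-coding. Angpt2 lies wholly inside Mcph1 on the opposite strand, and the antisense gene Gm17473 overlaps an exon of Angpt1. No source used here states that the counting used strand, so reads of these overlapping pairs may not be fully told apart.

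The 3 genes of the VEGF family that have an upstream window free of annotated exons illustrate the range of behaviour described below: Vegfc was much lower in differentiating cells, Vegfb somewhat lower and Vegfa nearly level. Their 250 bases before the transcription start are printed 5' to 3' in the direction of the gene, from RefSeq on GRCm38.p6, with E-boxes in capitals.
Vegfc (chr8:54077282-54077531, plus strand): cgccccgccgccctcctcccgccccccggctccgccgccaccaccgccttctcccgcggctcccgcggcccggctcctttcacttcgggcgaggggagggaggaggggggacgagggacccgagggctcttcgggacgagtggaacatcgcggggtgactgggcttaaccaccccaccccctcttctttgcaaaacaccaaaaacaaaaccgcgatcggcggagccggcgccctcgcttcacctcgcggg
Vegfb (chr19:6987652-6987901, minus strand): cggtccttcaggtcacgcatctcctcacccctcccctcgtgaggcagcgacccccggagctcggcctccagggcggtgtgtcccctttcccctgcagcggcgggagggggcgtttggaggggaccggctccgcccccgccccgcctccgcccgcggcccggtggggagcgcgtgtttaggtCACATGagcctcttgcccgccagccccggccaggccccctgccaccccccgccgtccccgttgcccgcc
Vegfa (chr17:46032378-46032627, minus strand): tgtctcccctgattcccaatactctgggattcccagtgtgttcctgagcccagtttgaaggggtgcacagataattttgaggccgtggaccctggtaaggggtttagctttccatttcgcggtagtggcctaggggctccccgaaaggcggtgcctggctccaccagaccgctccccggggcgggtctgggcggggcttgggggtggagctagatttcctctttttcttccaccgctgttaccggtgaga
An E-box, CANNTG, is the core that MyoD and myogenin recognise and reads the same pattern on both strands. It occurs once in the Vegfb window, as CACATG starting 69 bases before the start, and in neither of the other windows, against 66.2% of all 32851 windows of this length in the table. The form CAGCTG, which is also a CANNTG, is in none of the 3 and in 13.0% of all windows. Of the cores bound by hypoxia-inducible factors, searched on both strands, ACGTG was in none of the 3 (16.6% of all windows), and GCGTG occurred in the Vegfb window 237 and 81 bases before the start (28.2% of all windows). A match of letters is a description and not a site, and 250 bases leave out enhancers and the rest of each gene. In the RefSeq table, 4 of the 6 genes had a window. The Pgf window overlaps an annotated exon and is not printed, and Angpt1 and Angpt2 had no entry.

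Myog split the 6 genes into those made mainly by undifferentiated cells and those made throughout. Angpt1, Pgf and Vegfc were high in cells with little Myog and, by ratios of CPM plus 1, about 8- to 10-fold lower in cells with much of it. By the same ratios Angpt2 was about 2-fold lower at a low level, and Vegfa and Vegfb differed by less than 2-fold. Of the kept cells, 2572 (46.9%) had Myog under 400 CPM, 579 (10.6%) had 400 to 1500 CPM and 2330 (42.5%) had 1500 CPM or more, taking each cell's mean over the libraries. These classes are called Myog-low, Myog-intermediate and Myog-high. The members had been chosen with this pattern known, so these values describe it. Of 8 stem or progenitor markers, Pax7 was at 104, Myf5 at 94.1, Vcam1 at 29.1 and Sdc4 at 73.0 CPM in Myog-low cells. In Myog-high cells they were at 10.4, 13.5, 4.63 and 33.3 CPM. Myod1 (364 CPM in Myog-low against 612 CPM in Myog-high cells) and Itga7 (44.3 against 54.5 CPM) went the other way. Calcr and Cd34 were under 1 CPM in both classes. The 8 markers summed to 710 CPM in Myog-low and 729 CPM in Myog-high cells. Markers of other cell types differed as well. From Myog-low to Myog-high cells the 7 fibroblast markers went from a sum of 217 to 71.2 CPM, nearly all of it Col3a1 and Ly6a. Cd55 among them went the other way, from 3.70 to 5.11 CPM. So did the 4 Schwann markers, from a sum of 4.19 to 12.9 CPM, mostly Ngfr (2.80 to 11.3 CPM). The 7 pericyte markers went from a sum of 124 to 47.0 CPM. Notch3 went from 88.6 to 12.0 CPM, Rgs5 from 9.47 to 1.02, Pdgfrb from 8.72 to 0.744 and Cspg4 from 16.3 to 8.39 CPM, while Abcc9 went from 0.795 to 24.4 CPM. Of the 5 pericyte markers with enough UMIs for a ratio, 3 were at least 2-fold lower in Myog-high cells and 1 at least 2-fold higher. The part of these markers in the results was not tested.

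Angpt1 was at 43.6, 43.9, 44.1 and 43.3 CPM in Myog-low cells of libraries 1 to 4. It was at 11.9, 11.5, 11.0 and 10.6 CPM in Myog-intermediate cells and at 3.60, 3.30, 3.24 and 3.48 CPM in Myog-high cells. The libraries of the 3 classes did not overlap. The log2 ratio of Myog-high over Myog-low cells, on CPM plus 1 as for all ratios below, was -3.34 (95% interval -3.58 to -3.10), 10.1-fold lower on that scale. The mean levels were 3.41 against 43.7 CPM, and the added 1 makes the fold smaller than that of the levels.

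Pgf, which binds Flt1, stood at 47.1, 45.6, 47.3 and 45.3 CPM in Myog-low cells. It stood at 13.5, 11.6, 13.2 and 14.5 CPM in Myog-intermediate cells and at 3.15, 3.16, 3.91 and 4.27 CPM in Myog-high cells. The order was that of Angpt1, again with no overlap between classes. The log2 ratio was -3.36 (-3.60 to -3.12).

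Vegfc, the lymphatic factor, was at 46.4, 50.1, 48.6 and 47.4 CPM in Myog-low, 17.3, 18.0, 17.9 and 18.9 CPM in Myog-intermediate and 5.44, 4.85, 5.40 and 5.26 CPM in Myog-high cells. The classes did not overlap, and the log2 ratio was -2.98 (-3.19 to -2.77). Angpt2, the Tek antagonist, was low everywhere, at 4.94, 4.23, 4.87 and 4.13 CPM in Myog-low and 1.56, 1.55, 2.15 and 1.40 CPM in Myog-high cells. All Myog-low libraries were above all Myog-high ones, and the log2 ratio was -1.06 (-1.39 to -0.72). In the Myog-intermediate class Angpt2 was at 1.65 CPM, with an interval of 0.872 to 2.87 that holds the Myog-high level.

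Vegfa, the main blood vessel factor, was at 18.3, 19.7, 20.4 and 20.4 CPM in Myog-low cells, 21.2, 20.6, 20.6 and 15.6 CPM in Myog-intermediate cells and 15.3, 15.8, 16.0 and 16.0 CPM in Myog-high cells. Library 4 of the intermediate class lay below its other libraries and among the Myog-high ones. The log2 ratio of Myog-high over Myog-low was -0.30 (-0.47 to -0.13). Vegfb, the other Flt1 ligand, was at 44.9, 44.6, 43.2 and 44.2 CPM in Myog-low cells, 40.1 to 45.5 CPM in Myog-intermediate cells and 28.8, 29.8, 29.0 and 31.4 CPM in Myog-high cells. Its Myog-low and intermediate classes overlapped and its Myog-high class stood below both, with a log2 ratio of -0.56 (-0.68 to -0.44).

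**Figure D1:**
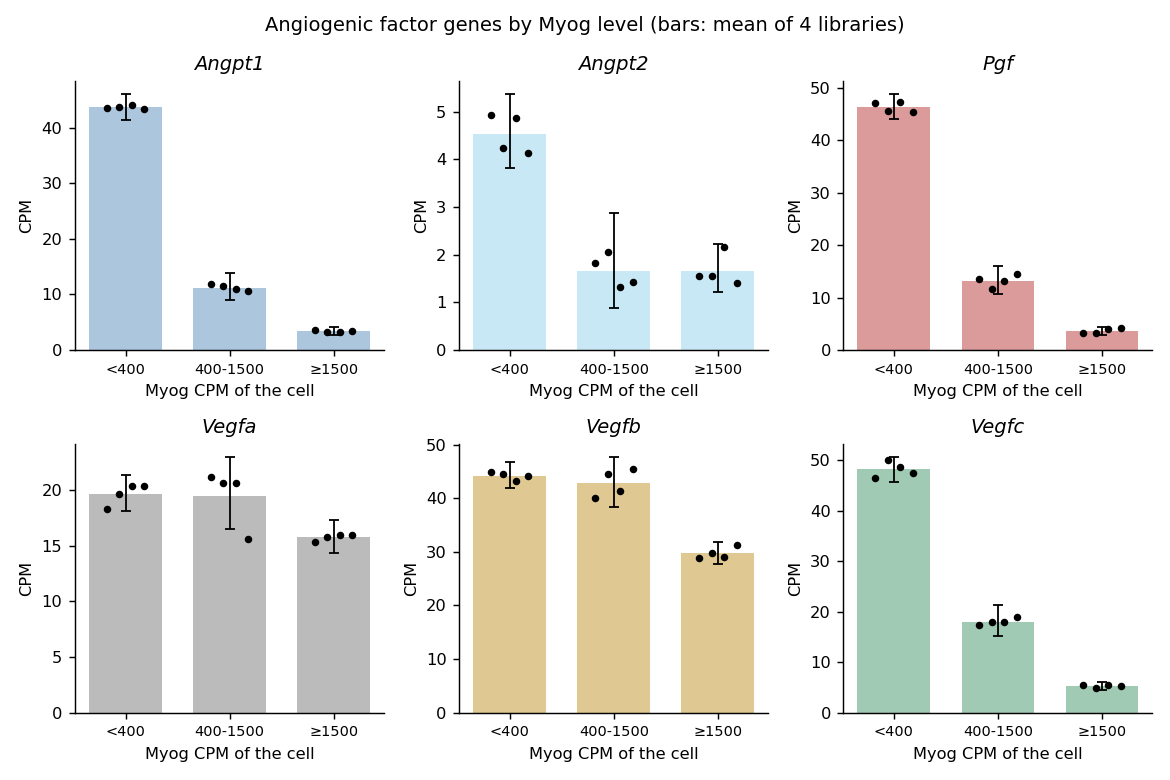
CPM of each of the 6 genes (vertical axis, own scale per panel, from 0) in cells with Myog under 400, 400 to 1500 and at least 1500 CPM. Bars are means of the 4 libraries, points are libraries 1 to 4 from left to right and error bars are 95% Poisson intervals. Angpt1, Pgf and Vegfc step down from 43.7, 46.3 and 48.2 CPM to 3.41, 3.63 and 5.23 CPM, while Vegfa moves only from 19.7 to 15.8 CPM.

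Among all 12915 genes with a mean of at least 50 UMIs per library over both classes, 17.2% were at least 2-fold lower and 7.71% at least 2-fold higher in Myog-high cells, and the median log2 ratio was -0.28. Of the 6 genes, 4 were at least 2-fold lower and 0 at least 2-fold higher. Only 0.0465% of genes had a lower ratio than Angpt1, 0.0310% than Pgf and 0.178% than Vegfc, while 48.4% had a lower ratio than Vegfa. The median of all genes moved by 0.25 with median-ratio scaling and by 0.27 with TMM scaling (trimmed mean of M-values). The counts of genes 2-fold lower and higher went from 2224 and 996 to 1606 and 1260 with the former and to 1555 and 1288 with the latter. With these scalings Vegfa stood at -0.04 and -0.01, Vegfb at -0.29 and -0.26, and Angpt1, Pgf and Vegfc remained at least 2-fold lower. Angpt2 stood at -0.86 and -0.84, short of the 2-fold call, which is made on CPM plus 1. At its low level the added 1 weighs on the ratio. Its scaled levels were 4.13 and 4.08 CPM in Myog-low against 1.83 and 1.85 CPM in Myog-high cells. Adding 0.1 instead of 1, without these scalings, gave -1.41.

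**Figure D2:**
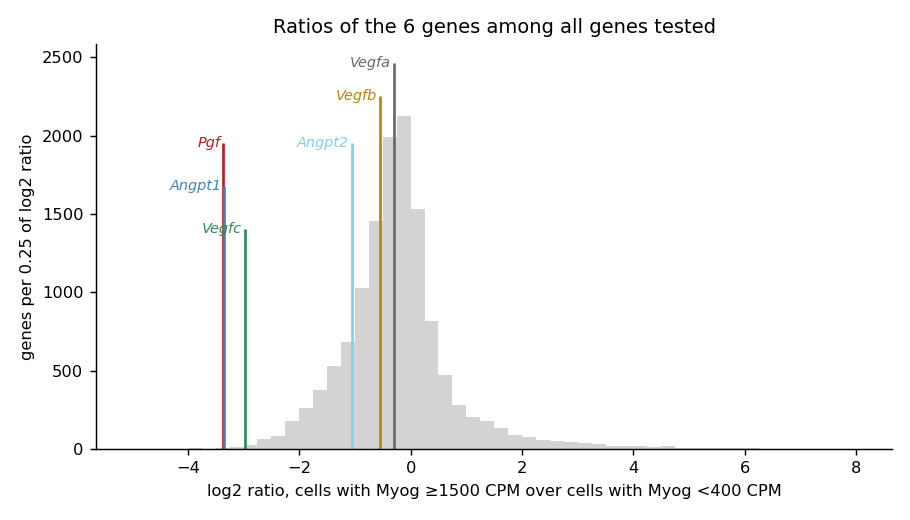
Log2 ratio of Myog-high over Myog-low cells (horizontal axis) for 12915 genes, as genes per 0.25 of log2 ratio (vertical axis, grey bars), with the 6 genes as labelled lines whose heights carry no value. Pgf (-3.36), Angpt1 (-3.34) and Vegfc (-2.98) lie in the far lower tail, and Vegfb (-0.56) and Vegfa (-0.30) lie in the bulk.

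Counted by molecules, Myog-low cells, which held 45.8% of all UMIs, gave 88.0% of the Angpt1 UMIs, 87.4% of the Pgf UMIs and 83.7% of the Vegfc UMIs. They gave 69.9% of the Angpt2, 53.5% of the Vegfb and 50.1% of the Vegfa UMIs. Myog-high cells, with 42.7% of all UMIs, gave 6.39% of the Angpt1, 6.38% of the Pgf and 8.50% of the Vegfc UMIs, but 37.5% of the Vegfa UMIs.

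The lower levels were already seen within the Myog-low class. Over 8 steps of Myog, from a median of 24.8 CPM in 1208 cells to 6919 CPM in 334 cells, Angpt1 went from 55.2 through 36.4, 24.4, 14.5, 8.91, 6.17 and 1.96 to 0.843 CPM, lower at every step. Pgf went from 57.7 through 40.5, 21.4, 19.4, 8.76, 6.69 and 2.03 to 0.764 CPM. On either side of the 400 CPM limit, Angpt1 stood at 24.4 CPM (200 to 400 CPM of Myog) and 14.5 CPM (400 to 800), and Pgf at 21.4 and 19.4 CPM with overlapping intervals. Vegfc stayed high over the lowest steps, at 53.3 and 47.5 CPM with overlapping intervals, then stood at 29.1, 21.0, 15.8, 9.83, 2.79 and 1.15 CPM. Vegfa kept between 15.4 and 20.7 CPM up to 6000 CPM of Myog and was at 12.3 CPM above it. Vegfb kept between 40.8 and 45.7 CPM up to 1500 CPM of Myog and was at 33.6, 27.5 and 27.0 CPM in the 3 steps above.

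**Figure D3:**
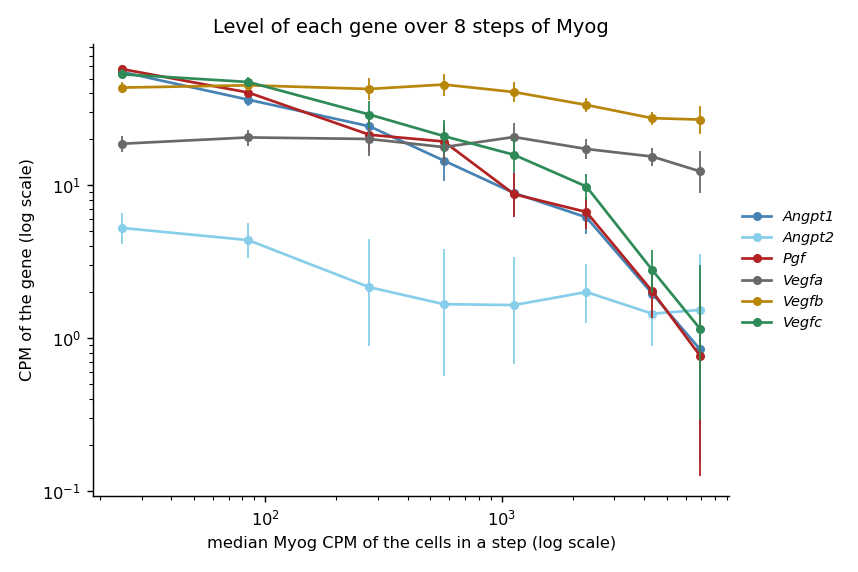
CPM of each gene (vertical axis, log scale) against the median Myog CPM of the cells in each of 8 steps (horizontal axis, log scale), as means of 4 libraries with 95% Poisson intervals. Angpt1, Pgf and Vegfc run from 55.2, 57.7 and 53.3 CPM down to 0.843, 0.764 and 1.15 CPM, and Vegfa and Vegfb stay within 12.3 to 20.7 and 27.0 to 45.7 CPM.

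Within the Myog-high class, cells were split by Acta1 (skeletal actin) plus Myh3 (embryonic myosin heavy chain). This gave 961 cells at 5000 CPM or more and 562 cells under 1000 CPM. Acta1 and Myh3 played no part in choosing the genes, but the split was not independent of Myog and Pax7. Across it Myog had a log2 ratio of 0.56 and Pax7 of -1.44, and their part in the result was not tested. Vegfc and Pgf were at least 2-fold lower in the cells with more sarcomere transcripts. Vegfc stood at 2.18, 2.39, 2.22 and 2.55 CPM in libraries 1 to 4, against 10.5, 8.94, 10.7 and 8.21 CPM (log2 ratio -1.66, -2.18 to -1.14). Pgf stood at 1.32, 1.93, 2.14 and 2.29 CPM against 5.56, 5.36, 6.83 and 6.78 CPM (-1.29, -1.85 to -0.69). Neither gene's libraries overlapped between the classes. With TMM scaling the Pgf ratio was -0.99, just short of 2-fold. Angpt1 stood at 2.55 against 5.11 CPM (-0.77), and that value leans on 1 library, since library 3 gave -0.17 and leaving it out gave -0.98. Vegfb stood at 23.7 against 39.1 CPM (-0.70, -0.95 to -0.46). Vegfa stood at 14.9 against 15.3 CPM (-0.04, -0.39 to 0.31). Angpt2 had too few UMIs for this comparison. Of all 10427 genes, 12.8% were at least 2-fold lower and 6.33% at least 2-fold higher, with a median of -0.32, and 2 of the 5 members with enough UMIs were 2-fold lower. The median moved by 0.32, 0.37 and 0.28 with median-ratio scaling, TMM and UMIs per cell, which changed the 1336 genes 2-fold lower and 660 higher to 759 and 923, 683 and 979, and 805 and 883. In the same order Vegfa stood at 0.28, 0.34 and 0.24, turned from just below 0 to above it, and Vegfb stood at -0.37, -0.32 and -0.41. The sarcomere-rich cells were also deeper, with a median of 12182 UMIs against 9607, and the part of depth was not tested.

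Pax7 detection divided the Myog-low class further, and of the 6 genes Angpt1 was the 1 past 2-fold. A cell counted as Pax7-detected if any of its 4 libraries, each thinned at random to 5000 UMIs so that depth was equal, held a Pax7 UMI. This gave 1765 cells with Pax7 and 634 without, of median depths 11306 and 11123 UMIs. A cell with no Pax7 UMI may still express Pax7.

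Angpt1 was at 49.6, 51.2, 51.7 and 49.4 CPM in Pax7-detected and 23.2, 20.7, 21.4 and 22.9 CPM in the other Myog-low cells. No library of one class reached the other. The log2 ratio was 1.16 (0.93 to 1.39), 2.23-fold higher on CPM plus 1. Where Pax7 was read without library 2 or without library 3 the ratio was 0.86 and 0.90, under 2-fold. It was 0.84 where 1 pair of libraries set the class and the other pair gave the level. The direction held there but the 2-fold mark did not. Separate libraries are not free of shared material, since an estimated 13.3% to 14.3% of molecules were present in both libraries of a pair.

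Pgf was at 51.2, 49.8, 53.1 and 49.7 CPM with Pax7 and 32.4, 29.4, 29.1 and 30.9 CPM without (log2 ratio 0.72, 0.52 to 0.93). Vegfc was at 48.7, 53.2, 52.0 and 50.7 CPM against 41.4, 42.9, 40.7 and 38.2 CPM (0.32, 0.14 to 0.50). The libraries of both genes were apart, with a smaller gap for Vegfc. Angpt2 was at 5.28 against 2.68 CPM (0.80, 0.24 to 1.31), an interval that overlaps that of Angpt1, and among the cycling cells described below its ratio was 1.01 where that of Angpt1 was 0.85. Vegfa was at 20.4 against 17.5 CPM (0.21, -0.06 to 0.48) and Vegfb at 43.2 against 48.1 CPM (-0.15, -0.32 to 0.02), and both intervals hold 0.

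Of 11783 genes, 0.0679% were at least 2-fold lower and 0.509% at least 2-fold higher in Pax7-detected cells, with a median log2 ratio of 0.13. These were 8 and 60 genes, and with any 1 of the 4 libraries left out they numbered 4 to 7 and 26 to 44. Of the 6 genes, 1 was 2-fold higher, Angpt1, and 0 were 2-fold lower. With median-ratio and TMM scaling the median fell by 0.10 and 0.11, and the counts of genes lower and higher became 12 and 37, and 13 and 36. Pericyte markers moved with the same split, the 7 summing to 140 CPM with Pax7 and 72.8 CPM without. Of the 4 with enough UMIs for a ratio, 3 were 2-fold higher, beside 0.509% of all genes. They were Notch3 (log2 ratio 1.04), Rgs5 (1.20) and Pdgfrb (1.25), and Cspg4 stood at 0.20. Abcc9, with too few UMIs for the comparison, went the other way (-0.54). The 12 listed markers of differentiating myocytes moved the other way, summing to 2295 CPM with Pax7 and 2951 CPM without. All 12 had a ratio below the median of all genes. Of them 2 were 2-fold lower, Myh3 (-1.46) and Ckm (-1.46), beside 0.0679% of all genes. Myog, 1 of the 12, stood at -0.40, so the split was not independent of differentiation. The part of all these markers in the result was not tested.

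Pax7 could also be detected in 226 Myog-high cells, and there Angpt1 was at 15.4 CPM (11.5 to 20.2), against 1.80 CPM (1.31 to 2.41) in the 2021 other Myog-high cells. Pgf was at 12.5 against 2.38 CPM, and Vegfc at 14.8 against 3.96 CPM. The 226 cells were deeper, with a median of 13098 UMIs against 11118, and doublets (droplets that held more than 1 cell) were not called, so a share of them may be mixtures. Their part in the result was not tested. Vegfa was at 18.2 against 15.5 CPM in the same cells.

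Cycling cells were told from non-cycling ones by Mki67 plus Top2a, markers of proliferation, within the Myog-low class, with 932 cells at 500 CPM or more, 681 at 100 to 500 CPM and 959 under 100 CPM. Angpt1 and Pgf took a smaller share of the UMIs of cycling cells, Vegfa and Vegfb a larger one, and the interval of Vegfc held 0. Angpt1 was at 41.9, 41.2, 41.5 and 41.0 CPM in cycling and 57.2, 53.0, 55.2 and 54.5 CPM in non-cycling cells (log2 ratio -0.40, -0.57 to -0.23). Pgf was at 43.5, 40.6, 43.3 and 37.7 CPM against 62.1, 60.1, 61.8 and 62.2 CPM (-0.57, -0.73 to -0.39). The libraries of both genes were apart. Vegfc was at 48.4 against 49.3 CPM (-0.03, -0.20 to 0.15).

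Vegfb stood at 47.1 CPM (46.1 to 48.1 over libraries) in cycling and 33.3 CPM (29.2 to 37.2) in non-cycling cells, with 51.7 CPM in the class between (log2 ratio 0.49, 0.29 to 0.69). Vegfa was at 23.2 CPM (20.7 to 24.5) against 17.0 CPM (16.3 to 17.7), a ratio of 0.42 (0.15 to 0.70). Angpt2 was at 5.47 against 3.79 CPM, with an interval of the log2 ratio that holds 0 (-0.06 to 0.93). The fibroblast markers summed to 198 CPM in cycling and 275 CPM in non-cycling cells, and their part was not tested. Of 11378 genes, 2.07% were at least 2-fold lower and 5.73% at least 2-fold higher in cycling cells, and 0 of the 6 genes were either.

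Cycling cells held more UMIs, a median of 13442 against 8894, so the scale matters here. Counted as UMIs per cell, the median of all genes moved by 0.58, and the 235 genes 2-fold lower and 652 higher became 40 and 2019. On that scale Angpt1 stood at 0.20 and Pgf at 0.03, so each cycling cell held about as many Pgf UMIs, and slightly more Angpt1 UMIs, than a non-cycling cell. Relative to the moved median both remained lower. Vegfa stood at 1.01 and Vegfb at 1.09 per cell, both 2-fold, and Vegfc at 0.58, on the median.

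Combining Pax7 and the cycling genes placed the highest Angpt1 and Pgf levels in 592 Myog-low cells with Pax7 and without cycling genes. Angpt1 was at 67.2, 66.2, 69.1 and 65.3 CPM there and at 26.3, 17.4, 21.8 and 24.1 CPM in the 245 non-cycling cells without Pax7 (log2 ratio 1.55). Among cycling cells it was at 44.9 CPM with Pax7 and 24.6 CPM without (0.85). Pgf was at 69.3, 66.7, 73.0 and 73.2 CPM in the 592 cells and at 41.2, 35.5, 34.2 and 36.6 CPM without Pax7 (0.92), with a like ratio among cycling cells (0.81). Of 15 groups with at least 50 cells, made by Myog, cycling genes and Pax7, the 592 cells ranked first by CPM for both genes, with intervals apart from the next group (60.5 to 73.9 against 41.1 to 49.1 CPM for Angpt1, 63.9 to 77.6 against 40.9 to 48.9 CPM for Pgf). That next group was the 749 cycling Myog-low cells with Pax7, and cycling cells held more UMIs each. Per library the 592 cells gave 395 Angpt1 and 415.75 Pgf UMIs, and the 749 cells gave 492.5 and 491. The order is thus one of share of UMIs, and the groups were not ranked by UMIs per cell. The lowest of the 15 was the 1694 Myog-high, non-cycling cells without Pax7, at 1.69 CPM of Angpt1 and 1.62 CPM of Pgf.

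Vegfc ranked the same 592 cells first at 51.7 CPM, but its next groups were at 51.2, 50.3 and 46.2 CPM with overlapping intervals. Vegfb was low in the 592 cells, at 30.2 CPM (25.9 to 35.0), and higher in the 245 cells without Pax7, at 41.7 CPM (log2 ratio -0.45). Its highest group was at 53.7 CPM, the 228 Myog-low cells of the middle cycling class without Pax7. Vegfa ran from 12.0 to 27.3 CPM over the 15 groups, and each group's interval overlapped that of its neighbour in the order. Angpt2 was highest in the 749 cycling Pax7-detected cells, at 6.03 CPM (4.68 to 7.69), again overlapping the next group.

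**Figure D4:**
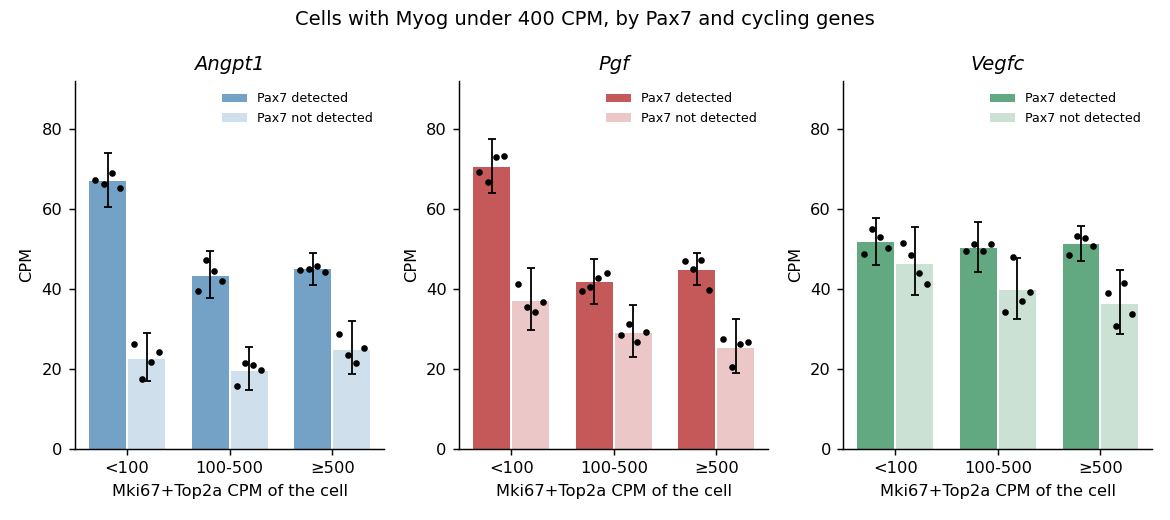
CPM of Angpt1, Pgf and Vegfc (vertical axis) in Myog-low cells by Mki67 plus Top2a level (horizontal axis) and Pax7 detection (dark and pale bars). Bars are means of 4 libraries, points are libraries and error bars are 95% Poisson intervals. The dark bar under 100 CPM is highest for Angpt1 (66.9 CPM) and Pgf (70.6 CPM), and for Vegfc the 3 dark bars are level at 50.3 to 51.7 CPM.

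Per cell, few transcripts of the 6 genes were caught. With each cell thinned to 5000 UMIs, 15.9% of 2399 Myog-low cells had an Angpt1 UMI in a given library (14.4 to 17.4), 18.1% a Pgf UMI and 18.1% a Vegfc UMI. Among 2247 Myog-high cells the shares were 1.10%, 1.17% and 2.11%, at median depths of 11276 and 11244 UMIs before thinning. No class here is known to lack these genes, so the share that free RNA gives was not measured. The lowest share seen was that of the 943 most sarcomere-rich cells, 0.822% for Angpt1, 0.477% for Pgf and 1.01% for Vegfc. Vegfa was detected in 8.38% of Myog-low and 7.04% of Myog-high cells, Vegfb in 19.7% and 13.7%, and Angpt2 in 2.13% and 0.823%. Before thinning, 27.8% of Myog-low cells had an Angpt1 UMI and 31.3% a Pgf UMI.

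Because the 4 libraries sampled the same cells, a cell that gave a UMI in one could be looked up in another. Of cells with Angpt1 in one library at 5000 UMIs, 43.0% had it again in another, against 8.20% of all kept cells. The figures were 42.3% against 9.40% for Pgf and 34.6% against 9.91% for Vegfc. They were 16.7% against 7.87% for Vegfa and 25.9% against 17.0% for Vegfb. Between 13.3% and 14.3% of molecules were estimated to be present in both libraries of a pair, which by itself raises these shares. Over all 4 libraries, Angpt1 was seen in 18.8%, Pgf in 21.2%, Vegfc in 25.0%, Vegfa in 24.8%, Vegfb in 46.9% and Angpt2 in 4.87% of cells.

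Pgf was detected more often in cells with an Angpt1 UMI than in cells without one. Over all 5197 cells of at least 5000 UMIs in every library, Pgf was detected in 23.5%, 22.8%, 22.7% and 21.4% of cells with an Angpt1 UMI in the same library, and in 8.43%, 7.84%, 8.62% and 8.02% of cells without. The gap was 14.4 percentage points (10.4 to 18.7) over a set that includes the Myog-high cells, in which both genes were rarely detected. Within the Myog-low class the shares were 25.9%, 23.9%, 24.7% and 22.2% with Angpt1, against 17.3%, 16.2%, 17.6% and 16.6% without. In these repeat counts of the same cells, all 4 libraries with Angpt1 were above all 4 without, by 7.26 points (2.70 to 12.1). Within this class both genes were still lower where Myog was higher. From cells under 50 CPM of Myog to cells at 200 to 400 CPM, Angpt1 went from 55.2 to 24.4 CPM and Pgf from 57.7 to 21.4 CPM. The part of Myog in the gap was not tested.

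Among Pax7-detected Myog-low cells the gap was 7.19 points (2.02 to 12.7), with 25.9% against 18.7%. Among those without Pax7 it was 2.04 points, with an interval from -6.41 to 14.1 over only 57.25 Angpt1-positive cells per library on average, so a difference was not detectable at this depth. In non-cycling Myog-low cells it was 9.08 points (1.22 to 17.7) and in cycling ones 5.12 points (-1.75 to 12.8). Among Myog-high cells Pgf was found in 11.3% of the few cells with Angpt1 (24.75 per library) and in 1.06% of those without, 10.2 points (1.06 to 29.2).

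**Figure D5:**
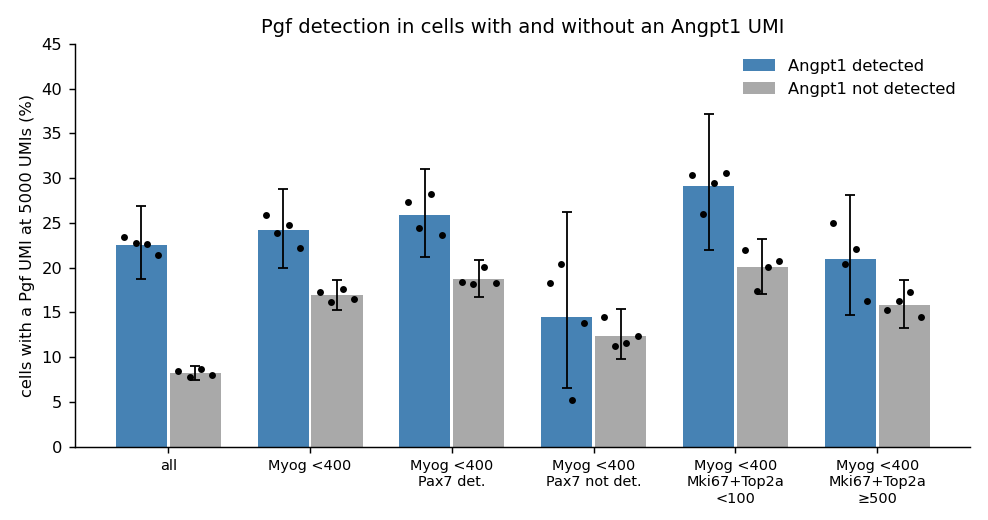
Share of cells with a Pgf UMI (vertical axis, percent, each cell thinned to 5000 UMIs) among cells with (blue) and without (grey) an Angpt1 UMI, for all cells and classes of Myog-low cells (horizontal axis). Bars are means of 4 libraries, points are libraries and error bars are 95% Clopper-Pearson intervals. The gap is 14.4 points over all cells and 7.26 points in Myog-low cells.

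All 15 pairs of the 6 genes were examined the same way. Over all cells, 4 pairs had an interval above 0: Angpt1 with Pgf, Angpt1 with Vegfc (19.7% against 9.04%), Pgf with Vegfc (18.7% against 9.0%) and Angpt2 with Pgf (18.3% against 9.28%). Within Myog-low cells only Angpt1 with Pgf did, and 0 pairs had an interval below 0 in either set. The pair Angpt1 with Pgf had been picked for study beforehand, with earlier results of these data known. Angpt1 with Vegfc gave 3.36 points in Myog-low cells (-0.98 to 8.08) and Pgf with Vegfc 2.79 points (-1.30 to 7.21). Both intervals overlap that of Angpt1 with Pgf (2.70 to 12.1), so a difference between these pairs was not shown. No interval was adjusted for the 15 pairs.

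Counting Angpt1, Pgf and Vegfc together over all 4 thinned libraries, 25.2% of Myog-low cells showed none of the 3 genes, 39.2% showed 1, 27.4% showed 2 and 8.13% showed all 3. With Pax7 detected, 9.41% showed all 3, against 4.57% (3.08 to 6.50) without. Of Myog-high cells, 88.3% showed none and 0.0890% showed all 3 (2 of 2247 cells).

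Over the 15 groups, Pearson correlations of log2 CPM plus 1 were 0.969 for Angpt1 with Pgf, 0.964 for Pgf with Vegfc and 0.916 for Angpt1 with Vegfc, and 0.221 for Angpt1 with Vegfa. The groups share libraries and are ordered by Myog, so these values are descriptions. Among 10765 genes with at least 200 UMIs per library, the 6 genes themselves left out, the pattern most like Angpt1 was that of Gcnt2 (r = 0.982), then Nrp1 (0.980) and Morrbid (0.967). For Pgf they were Col12a1 (0.985), Ctxn1 (0.979) and Gcnt2 (0.977). For Vegfa they were Ino80 (0.892), Ube3c (0.862) and Capza1 (0.857).

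The receptors of these ligands were nearly absent from the cells. Of 7 listed, Flt1 was at 0.0910, Flt4 at 0.0636 and Kdr at 0.00404 CPM, Tek was at 0.869 CPM and Tie1 at 0. The neuropilins Nrp1 and Nrp2, co-receptors of VEGF and semaphorin ligands, were the 2 that passed the count minimum. Both were at least 2-fold lower in Myog-high cells, against 17.2% of all genes, Nrp1 at 11.1 against 68.4 CPM (-2.53, -2.69 to -2.37) and Nrp2 at 6.75 against 60.8 CPM (-3.00, -3.19 to -2.80).

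A list of 29 other pro-angiogenic factors held secreted proteins and also Efna1 and Efnb2, which are bound to the cell surface. Of the 29, 23 passed the minimum, with a median log2 ratio of -1.13 against -0.28 for all genes. Of these 23, 13 were 2-fold lower in Myog-high cells, Efna1 and Efnb2 among them, and 1 was 2-fold higher. This was 56.5% lower and 4.35% higher, beside 17.2% and 7.71% of all genes. With median-ratio and TMM scaling, tried on the lists after seeing the data, 9 were 2-fold lower (39.1%) and 2 higher, beside 12.4% and 12.0% of all genes lower. The chemokine Cxcl12 was at 2.57 against 36.9 CPM (-3.41), the matricellular protein Ccn2 at 7.36 against 51.5 CPM (-2.65) and the peptide hormone Apln at 0.837 against 9.25 CPM (-2.48). The gene that was higher was Igf1, a growth factor for muscle itself, at 24.2 against 10.7 CPM (1.12). The 3 with the highest counts were Igf2 at 392 against 206 CPM (0.93), Pdgfc at 65.9 against 97.3 CPM (-0.56) and Angptl2 at 49.7 against 82.7 CPM (-0.72), none of them 2-fold.

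Of 14 listed anti-angiogenic proteins, 11 passed, 5 were 2-fold lower and 1 was 2-fold higher, with a median of -0.96. This was 45.5% lower and 9.09% higher, beside 17.2% and 7.71% of all genes, and both scalings left the counts at 5 and 1. Timp1, an inhibitor of matrix metalloproteinases, was at 47.9 against 201 CPM (-2.05), Col18a1, the source of endostatin, at 14.1 against 56.9 CPM (-1.94) and the protease Adamts1 at 4.57 against 18.4 CPM (-1.80). Vash2, which has also been described as promoting vessels, was the higher one, at 90.9 against 27.0 CPM (1.71). Sparc was at 781 against 1043 CPM (-0.42), Serpinf1 at 357 against 698 CPM (-0.96) and Timp2 at 255 against 264 CPM (-0.05).

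Of 9 genes of oxygen sensing and Vegfa regulation, 8 passed, 1 was 2-fold lower and 1 higher in Myog-high cells, with a median of -0.02. At 12.5% each way, these shares lay near the 17.2% and 7.71% of all genes. Hif1a, the oxygen-regulated transcription factor, was at 52.9 against 67.6 CPM (-0.35), its partner Arnt at 33.5 against 32.3 CPM (0.05), and the oxygen sensors Egln2 at 32.7 against 34.8 CPM (-0.08) and Egln1 at 22.1 against 35.5 CPM (-0.66). Egln3 was at 5.87 against 14.0 CPM (-1.13), and with either scaling it was no longer 2-fold lower. Ppargc1a, a coactivator known to induce Vegfa in muscle, was at 22.7 against 3.80 CPM (2.30). Of 11 targets of hypoxia-inducible factors, 10 passed, 2 were 2-fold lower and 1 higher, with a median of 0.10, which at 20.0% and 10.0% was also near the shares of all genes. Ddit4 was at 5.74 against 23.2 CPM (-1.84), Ndrg1 at 0.720 against 3.48 CPM (-1.39) and Bnip3 at 91.0 against 31.0 CPM (1.52), while the glycolytic enzymes Ldha (911 against 767 CPM, 0.25) and Pgk1 (485 against 501 CPM, -0.05) were nearly level.

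In the Pax7 split none of these lists held a gene with enough UMIs that was 2-fold lower or higher (0 of 2 receptors, 0 of 21 pro-angiogenic and 0 of 11 anti-angiogenic factors, 0 of 8 oxygen-sensing genes and 0 of 10 hypoxia targets). These counts lay near the background of 0.0679% of all genes lower and 0.509% higher. Nrp1 stood at 0.79 and Nrp2 at 0.53, beside 1.16 for Angpt1 and 0.72 for Pgf.

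The 463 barcodes left out, mostly low in UMIs (median 1207) and at 40.9% mitochondrial, held Angpt1 at 37.7 CPM (25.6 to 53.6) and Vegfc at 74.2 CPM (56.7 to 95.4), and Pgf at 7.58 CPM (2.88 to 16.4). These differ from the kept cells, where Angpt1 was at 22.8, Vegfc at 26.4 and Pgf at 24.3 CPM, so Angpt1 and Pgf moved apart there. The left-out values rest on a mean of only 30.75 Angpt1, 60.5 Vegfc and 6.25 Pgf UMIs per library. With mitochondrial UMIs taken out of the total, Angpt1 was at 56.9, Vegfc at 112 and Pgf at 11.5 CPM in the left-out barcodes. In kept cells they were then at 23.6, 27.3 and 25.2 CPM.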

How the data were processed

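The deposited values are UMI counts per gene and cell, written by Cell Ranger 7.1.0 per the file headers and not normalised by the authors. The submitters' processing notes name Cell Ranger 3.1.0 and the builds mm10 and GRCm39 without roles, so the counting build is not settled. The 6 genes and all gene lists were chosen with earlier results of these data known. The 4 files hold the same cells, so a replicate test was not run. Per file, counts were summed over a class of cells, scaled to CPM and averaged over files. Ratios are log2 of CPM plus 1, a gene needed a mean of 50 UMIs per file over both classes, and 2-fold was the call. Intervals are exact 95% Poisson, Clopper-Pearson or conditional binomial intervals. Detection used hypergeometric thinning to 5000 UMIs. No doublet caller was run, and an alternative left out the deepest 5% of cells. From each list were named the 3 genes with the highest CPM and the 3 with the largest 2-class ratio, and for likeness the 3 closest genes. Genes named as the single 2-fold members of a list were added after their values were seen. Of 32285 gene identifiers 32158 (99.6%) matched GENCODE vM21. The computation was tested on simulated data and used python 3.11.15, numpy 2.4.6, scipy 1.17.1, pandas 2.3.3 and matplotlib 3.10.9.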

Additional observations from a re-analysis of the deposited data

Results flagged for a closer look

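Of 56 sets of 4 libraries examined, 3 held 1 library far from the others relative to the range, and chance gives about 5%. Angpt1 in kept cells was at 22.6 CPM in library 4, against 22.8 to 22.9 CPM in the others, a small difference. Vegfa in cells with Myog at 400 to 1500 CPM was at 15.6 CPM in library 4, against 20.6 to 21.2 CPM in the others. The log2 ratio of Angpt1 between sarcomere-rich and sarcomere-poor Myog-high cells was -0.17 in library 3, against -1.02 to -0.94 in the others.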

How the results depend on the processing

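Of 335 alternatives to the ratios and co-detection values, 288 left the value inside its counting interval, 45 moved it outside, and 2 turned a value whose interval excluded 0. Values near 0 also changed sign, so that 14 alternatives in all had the other sign. For the Myog ratio, leaving out the deepest 5% of cells gave -3.66 for Angpt1 and -3.69 for Pgf, limits of 200 and 3000 CPM gave -4.10 for Angpt1, -4.18 for Pgf and -3.90 for Vegfc, and adding 0.1 to CPM gave -3.64 for Angpt1, -1.41 for Angpt2 and -3.65 for Pgf. Median-ratio scaling gave -3.10 for Angpt1, -3.12 for Pgf, -0.039 for Vegfa, -0.29 for Vegfb and -2.73 for Vegfc, and TMM gave -3.07, -3.09, -0.012, -0.26 and -2.70.

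For Pax7, leaving out 1 library gave Angpt1 0.86 to 1.17. Pax7 in at least 2 libraries gave it 0.90, and separate libraries for class and level 0.84. Without thinning the ratios were 1.43 for Angpt1, 1.32 for Angpt2, 0.50 for Pgf, 0.57 for Vegfa and 0.78 for Vegfc. Among non-cycling cells, chosen after seeing the data, they were 1.55 for Angpt1, 0.24 for Angpt2 and -0.45 for Vegfb, and among cycling cells 0.85 for Angpt1, -0.18 for Vegfa and 0.50 for Vegfc. Genes 2-fold lower numbered 8 and ran from 1 to 45 over the alternatives, and those 2-fold higher numbered 60 and ran from 25 to 235. With any 1 of the 4 libraries left out they numbered 4 to 7 and 26 to 44.

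For the cycling ratio, UMIs per cell turned Angpt1 to 0.20 and Pgf to 0.035, and gave 0.94 for Angpt2, 1.01 for Vegfa, 1.09 for Vegfb and 0.58 for Vegfc. Limits of 50 and 200 CPM gave Pgf -0.75. For the sarcomere ratio, TMM gave Vegfa 0.34 and Vegfb -0.32, median-ratio scaling and UMIs per cell gave Vegfb -0.37 and -0.41, and limits of 2000 and 10000 CPM gave Vegfc -2.26. The co-detection gap of Angpt1 and Pgf was 22.9 points without thinning and 2.04 points in Myog-low cells without Pax7. The cause of these shifts was not tested. No paired analysis was possible because all 4 samples belong to 1 group. With 1 sample, no value carries the spread between animals or cultures. Angpt2 was the shallowest gene, and single-cell shares are limited by depth.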
